A study of Drosophila melanogaster with 15 samples.

Results

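The expressed long non-coding RNA (lncRNA) genes of sorted midgut cells of adult Drosophila melanogaster were examined across 5 groups of libraries. They were the genes whose symbol starts with lncRNA: and whose level reached at least 5 FPKM, a read count normalized to gene length and library depth, in at least 3 of the 15 libraries. The rule found 82 of the 1797 lncRNA genes in a table of 17558 genes. They were selected on the FPKM values of these same libraries, so those values are given as a description. Symbols are written below without the prefix. The cells were intestinal progenitors carrying green fluorescent protein, sorted from midguts of adults on day 7. Each group had 3 libraries. The first was labelled ttk-RNAi, for RNA interference against ttk, a zinc finger repressor. The second, dpn OE, was labelled as overexpressing dpn, a Hes-type repressor known from neural stem cells. The third, Nicd OE, was labelled as overexpressing Nicd, and the fourth, seq&Nicd OE, as overexpressing seq, a zinc finger protein gene, together with Nicd. The fifth was wild type (Ctrl). Nicd is the usual short name of the intracellular domain of the receptor Notch. A driver line, construct, strain background or sex is not given in the labels used here, nor what green fluorescent protein was expressed from. Nothing in the labels ties replicates to separate flies or cultures. The p-values below therefore cover only the spread among the 3 libraries of a group, which may be technical.

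Long non-coding RNAs are transcripts that are not known to be translated, and they lie between coding genes, inside their introns or on the strand opposite to them. Some act as RNA, such as roX1 and roX2, which guide the dosage compensation complex to the male X chromosome, or Hsromega, a heat-inducible nuclear RNA that gathers RNA-binding proteins into nuclear speckles. For most of the genes below no function is known from the sources used here, and their levels are described beside those of the coding genes around them. In the fly midgut, stem cells and enteroblasts give rise to enterocytes and to hormone-secreting enteroendocrine cells, and Notch signalling governs that choice.

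Depth estimated from the steps of low values was 51143042 to 55963222 reads in the libraries labelled ttk-RNAi, and 25131959 to 38361806 reads in Ctrl libraries. Genes took 62.9 to 65.6% of the reads of ttk-RNAi libraries and 60.8 to 63.2% of those of dpn OE. The share was 39.6 to 48.9% for seq&Nicd OE, 33.7 to 48.5% for Nicd OE and 56.4 to 62.5% for Ctrl. Replicate 3 of Nicd OE stood apart from its group, at 48.5% against 33.7% and 34.3%. In seq&Nicd OE replicate 3 was the highest too, at 48.9% against 44.2% and 39.6%. Replicate 2 of Ctrl also stood apart, with the highest sum of FPKM over all genes (548522) and 31 lncRNA genes at 5 FPKM or more, against 41 and 48 in the other 2 Ctrl libraries. The manipulated genes did not all move with the labels. The gene ttk was at 87 to 113 FPKM in the libraries labelled ttk-RNAi and 11.1 to 43.6 FPKM in Ctrl. The gene N was at 17.2 to 29.1 FPKM in the libraries labelled Nicd OE and 41.9 to 76.3 FPKM in Ctrl. The gene dpn was at 4.65 to 7.16 FPKM in dpn OE and 1.45 to 2.91 FPKM in Ctrl, and also at 268 to 311 FPKM in ttk-RNAi and 167 to 296 FPKM in seq&Nicd OE, while seq was listed at 0 in each library. All directions below are directions between libraries that carry these labels. The progenitor markers measured, N, Sox21a and E(spl)mbeta-HLH, summed to 149.8 to 163 FPKM in ttk-RNAi and 487 to 634 FPKM in dpn OE. Their sum was 106 to 122 FPKM in seq&Nicd OE, 170.1 to 207 FPKM in Nicd OE and 548 to 1231 FPKM in Ctrl, and 3 further progenitor markers were not matched. In dpn OE and Ctrl most of it was E(spl)mbeta-HLH, at 459 ± 51 and 662 ± 329 FPKM (SD, n = 3 each). In ttk-RNAi against Ctrl E(spl)mbeta-HLH and N fell (limma adjusted p = 2.5e-08 and 0.011). Sox21a did not (0.78), at 76.8 ± 7.41 FPKM in ttk-RNAi and 82.9 ± 51 FPKM in Ctrl, but it fell in Nicd OE and seq&Nicd OE (0.0095 and 0.011). Of the visceral muscle markers 1 of 5 passed the filter on low values, and their sum stayed between 0.416 and 3.81 FPKM over the 15 libraries. The 2 germline markers in the table (bam and aub) were under 1 FPKM in each group mean.

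Per the gene annotation of BDGP6.54, the 82 genes were spread over chromosome arms 3L (25), 3R (19), X (13), 2R (12), 2L (10) and chromosome 4 (3). Their exonic length had a median of 627.5 bases, with a range of 205 to 21710 bases, and 48 of them had 1 exon. Of the 82, 43 were intergenic, and 34 of these lay within 1000 bases of a coding gene. A further 25 lay in an intron of a coding gene, 19 of them on the strand opposite to the host. Another 12 shared exon bases with a coding gene, and 2 touched the body of a coding gene without sharing exon bases. Among the 1715 other lncRNA genes, 71.3% were intergenic, 20.4% intronic and 7.76% shared exon bases, against 52.4%, 30.5% and 14.6% of the 82. Reads in shared exon bases appear to have been left out by the authors' counting: 28 of the 29 lncRNA genes whose exon bases are all shared were listed at 0 in each library. The levels of the members that share bases, of which there were 18 when non-coding neighbours are included, therefore rest on their unshared bases. Of the 73 members with values low enough to resolve single reads, 70 stepped in whole reads of the annotated length within 0.05 reads, and CR44127, noe and CR46061 did not.

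**Figure D1:**
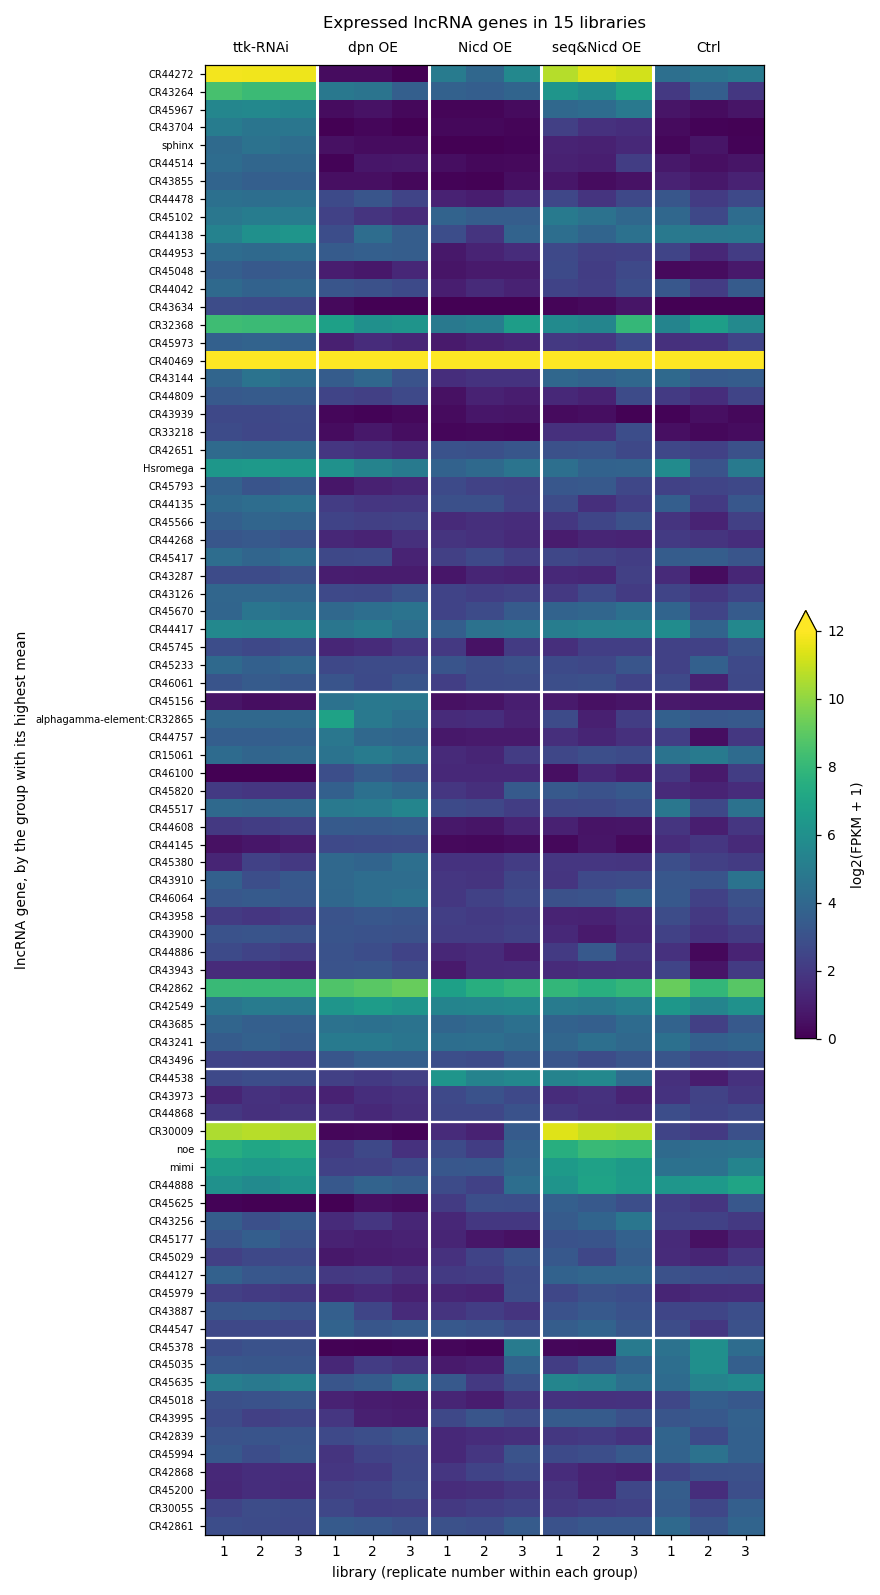
Level of each of the 82 expressed lncRNA genes (rows) in each of the 15 libraries (columns, replicates 1 to 3 of each group, with Ctrl at the right), as log2(FPKM + 1), where yellow is high. Rows are set in blocks by the group with the highest mean, which was ttk-RNAi for 35 genes, dpn OE for 21, Nicd OE for 3, seq&Nicd OE for 12 and Ctrl for 11. CR40469 is above the top of the colour scale in every library.

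Most of these genes were modest in level and varied widely between groups. The median FPKM over the 15 libraries was under 10 for 62 of the 82 and at least 50 for 4, and 8 genes were at 5 FPKM or more in each of the 15 libraries. In the median gene the highest group mean was 7.28 times the lowest, 32 genes ranged over more than 10-fold, and 23 had a group mean under 1 FPKM. As the median over genes, the group means spanned 2.39 on the log2(FPKM + 1) scale for the 82 lncRNA genes and 1.70 for the 5063 coding genes that met the same threshold. The groups contributed unequally: 61 of the 82 were at 5 FPKM or more in all 3 libraries labelled ttk-RNAi. The same held for 38 in dpn OE, 34 in seq&Nicd OE, 19 in Nicd OE and 27 in Ctrl. The highest group mean lay in ttk-RNAi for 42.7% of the lncRNA genes and 29.6% of those coding genes. It lay in dpn OE for 25.6% of the lncRNA genes and 53.2% of the coding genes, and in seq&Nicd OE for 14.6% and 4.90%. Nicd OE held 3.66% and 2.67%, and Ctrl 13.4% and 9.68%.

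Of the genes that were higher in all libraries labelled ttk-RNAi and seq&Nicd OE than in the other 9, those with the highest means there were 2 genes on chromosome arm 2R, CR30009 and CR44272. CR30009, a gene of 2 exons and 2450 exonic bases at 2R:10261315-10263827 on the minus strand, had 1464, 1689.7 and 1486 FPKM in the libraries labelled ttk-RNAi and 2719.6, 1992 and 1785 FPKM in those labelled seq&Nicd OE. It had 0.142, 0.186 and 0.0733 FPKM in dpn OE, 1.8, 1.23 and 9.93 FPKM in Nicd OE and 4.48, 3.15 and 6.56 FPKM in Ctrl. All 6 libraries of the first pair of groups lay far above the other 9, and dpn OE lay below Ctrl without overlap. On the log2(FPKM + 1) scale CR30009 rose by 8.12 ± 0.43 (SE) in ttk-RNAi against Ctrl and by 9.03 ± 0.43 in seq&Nicd OE against Nicd OE (limma adjusted p = 4.7e-10 and 5.4e-10). The fold between the means in seq&Nicd OE and Nicd OE, 501, rested on Nicd OE replicate 3 and was 1432 without it. In dpn OE against Ctrl it fell by 2.30 on that scale (limma adjusted p = 4.3e-04).

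CR44272, a gene of 1 exon and 372 bases at 2R:7992196-7992567 on the minus strand, had 3584, 3444 and 3329 FPKM in ttk-RNAi and 1619, 2784 and 2317 FPKM in seq&Nicd OE. It had 0.311, 0.307 and 0 FPKM in dpn OE, 30.7, 15.1 and 47.3 FPKM in Nicd OE and 19.9, 24.2 and 29.8 FPKM in Ctrl. The ttk-RNAi and seq&Nicd OE libraries again lay above all others, Nicd OE and Ctrl overlapped, and dpn OE was near 0. Relative to Ctrl it rose by 7.09 ± 0.33 in ttk-RNAi and by 6.43 ± 0.33 in seq&Nicd OE, and relative to Nicd OE it rose by 6.23 in seq&Nicd OE (limma adjusted p = 1.1e-10, 1.4e-09 and 1.5e-09). In dpn OE, which held 6 of its reads over 3 libraries, it was 119.6-fold lower than in Ctrl (95% counting interval 54.9 to 326; limma adjusted p = 4.9e-07).

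The nearest coding genes of these 2 differed in behaviour. CG12911 lies on the plus strand and ends 38 bases from the 3′ end of CR30009, and it had 35 ± 7.22 FPKM in ttk-RNAi and 33.2 ± 10.9 FPKM in seq&Nicd OE (SD, n = 3 each). Its means were 0.301 ± 0.148 FPKM in dpn OE, 0.0688 ± 0.0831 FPKM in Nicd OE and 0.0491 ± 0.0255 FPKM in Ctrl, and it rose by 5.08 in ttk-RNAi and by 4.97 in seq&Nicd OE against Ctrl on the log2(FPKM + 1) scale (limma adjusted p = 9.7e-11 and 5.7e-10). CG12910, 1229 bases to the other side, was at 11.7 ± 1.22 FPKM in ttk-RNAi, 8.47 ± 2.76 FPKM in seq&Nicd OE, 0.786 ± 0.296 FPKM in Nicd OE and 6.09 ± 0.517 FPKM in Ctrl. In dpn OE CG12910 was at 2.47 ± 0.336 FPKM. Against Ctrl it rose in ttk-RNAi and fell in dpn OE and Nicd OE (limma adjusted p = 0.0052, 9.5e-04 and 9.3e-06). It was not called in seq&Nicd OE against Ctrl (limma adjusted p = 0.19). Beside CR44272, ACC (acetyl-CoA carboxylase, 333 bases away) was at 1.55 ± 0.116 FPKM in ttk-RNAi and 1.91 ± 0.767 FPKM in Ctrl (limma adjusted p = 0.54), and Dic3, 1230 bases away, stayed under 1 FPKM in each group mean. CG12911 was thus near 0 in the same groups in which CR30009 was low. In ttk-RNAi and seq&Nicd OE neither neighbour of CR44272 came near its level. In dpn OE, where CR44272 was near 0, ACC was above it at 5.56 ± 0.216 FPKM, and ACC rose there against Ctrl (limma adjusted p = 1.1e-04).

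In 14 of the 82 genes all 6 libraries labelled ttk-RNAi and seq&Nicd OE lay above the other 9: CR44272, CR30009, CR43264, noe, mimi, CR45967, CR43704, sphinx, CR43256, CR44514, CR44127, CR45048, CR45177 and CR33218. They were 17.1% of the 82, and the same held for 5.08% of the 5063 coding genes at the same threshold, a difference that was not tested. Of the 14, 7 were intergenic, 4 lay in introns, namely of CG15765 (CR43264), blot (noe), CG14459 (CR45967) and Raf (CR33218), 2 shared exon bases with a coding gene and 1 touched the body of one. CR43264 had 361, 293 and 294 FPKM in ttk-RNAi and 74.3, 53.9 and 116 FPKM in seq&Nicd OE. It had 26.6, 23.3 and 11.6 FPKM in dpn OE, 12.1, 11.2 and 13.4 FPKM in Nicd OE and 2.95, 11 and 2.91 FPKM in Ctrl. The ttk-RNAi libraries lay above seq&Nicd OE and both above the rest, dpn OE and Nicd OE overlapped, and every Ctrl library was below them. CR43264 rose by 5.79 in ttk-RNAi, by 1.84 in dpn OE and by 3.78 in seq&Nicd OE against Ctrl (limma adjusted p = 1.2e-08, 0.0014 and 3.1e-06). Its fold over Ctrl in ttk-RNAi was 56.2, and 108 without Ctrl replicate 2.

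CR45967, in an intron of CG14459 on the opposite strand, had 44.4, 47.6 and 42.1 FPKM in ttk-RNAi, 15.6, 18.2 and 28.3 FPKM in seq&Nicd OE and 0.587, 0.32 and 0.594 FPKM in Ctrl. It was also under 1 FPKM in each dpn OE and Nicd OE library, and it rose by 4.93 ± 0.21 in ttk-RNAi against Ctrl and by 4.17 ± 0.21 in seq&Nicd OE against Nicd OE (limma adjusted p = 4.8e-11 and 9.3e-10). CR43704, an intergenic gene at 2L:3769926-3770454, had 31.8, 24 and 24.8 FPKM in ttk-RNAi, 3.77, 2.3 and 1.97 FPKM in seq&Nicd OE and 0.296, 0.0752 and 0.0582 FPKM in Ctrl. Only its ttk-RNAi libraries took it past the threshold, so no test is given there. Against Nicd OE it rose by 1.62 in seq&Nicd OE (limma adjusted p = 6.0e-06), and its 8 reads over the 3 Nicd OE libraries put the fold of 15.3 between 7.77 and 35.5 by counting error.

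The gene noe, in an intron of blot on the same strand, had 178, 137 and 172 FPKM in ttk-RNAi and 186, 278 and 255 FPKM in seq&Nicd OE. It had 3.27, 5.16 and 2.3 FPKM in dpn OE, 5.65, 3.55 and 12.3 FPKM in Nicd OE and 16.5, 19.9 and 21.6 FPKM in Ctrl, so that Ctrl lay between these 2 pairs of groups without overlap. It rose by 3.01 in ttk-RNAi and by 3.55 in seq&Nicd OE against Ctrl, and fell by 2.19 in dpn OE and by 1.45 in Nicd OE (limma adjusted p = 2.5e-06, 9.5e-07, 9.0e-05 and 0.0036). The gene mimi had the same order, at 101, 90.4 and 97.7 FPKM in ttk-RNAi and 92.5, 115 and 93.1 FPKM in seq&Nicd OE. It had 4.05, 4.21 and 5.38 FPKM in dpn OE, 8.55, 8.8 and 14.6 FPKM in Nicd OE and 21.5, 21 and 41.8 FPKM in Ctrl. Its dpn OE libraries were the lowest and did not overlap Nicd OE. Each of its 4 comparisons with Ctrl was called (limma adjusted p = 5.4e-05 in ttk-RNAi, 6.6e-05 in seq&Nicd OE, 1.2e-05 in dpn OE and 0.0019 in Nicd OE). The gene sphinx, a young retroposed lncRNA gene tied to male courtship, shares 39.5% of its exon bases with fuss on the opposite strand. It had 16.5, 21.9 and 18.3 FPKM in ttk-RNAi, 1.27, 1.12 and 1.64 FPKM in seq&Nicd OE, 0.029, 0.030 and 0.0951 FPKM in Nicd OE and 0.169, 0.58 and 0.0748 FPKM in Ctrl. The seq&Nicd OE libraries lay between ttk-RNAi and the rest, and sphinx rose by 1.15 in seq&Nicd OE against Nicd OE (limma adjusted p = 7.0e-05).

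The summed level of the neuron markers elav, nSyb, Appl, Syt1 and brp was also highest in these groups, but not each marker. The sum was 152 to 174 FPKM in ttk-RNAi and 138 to 258 FPKM in seq&Nicd OE. It was 9.63 to 9.89 FPKM in dpn OE, 17.1 to 24.5 FPKM in Nicd OE and 39.9 to 69 FPKM in Ctrl. In ttk-RNAi most of it was Appl, the amyloid precursor-like membrane protein, at 132 ± 8.9 FPKM in ttk-RNAi and 17.8 ± 7.55 FPKM in Ctrl, and elav was at 8.3 ± 0.319 FPKM in ttk-RNAi and 6.97 ± 2.27 FPKM in Ctrl. In ttk-RNAi against Ctrl 2 rose and 1 fell of the 5, where 30.7% of all genes tested were higher and 13.7% lower. In seq&Nicd OE against Nicd OE 5 rose and 0 fell, where 15.8% of all genes tested were higher and 3.85% lower. Syt1, a synaptic vesicle protein, was highest in Ctrl, at 1.21 ± 0.187 FPKM in ttk-RNAi, 3.24 ± 0.394 FPKM in seq&Nicd OE and 7.66 ± 2.21 FPKM in Ctrl, and nSyb was at 13.3 ± 1.36 FPKM in ttk-RNAi and 17.8 ± 9.85 FPKM in Ctrl. The enteroendocrine markers pros, Tk, NPF, AstA, AstC and Orcokinin summed to 836 to 947 FPKM in ttk-RNAi and 4443 to 6673 FPKM in seq&Nicd OE. Their sum was 3028 to 4648 FPKM in dpn OE, 2993 to 4479.6 FPKM in Nicd OE and 12666 to 61621 FPKM in Ctrl, where it was mostly NPF. Of the 6, AstA had its highest mean in ttk-RNAi (20.9 ± 1.76 FPKM, against 11.8 ± 2.79 FPKM in Ctrl) and Tk in seq&Nicd OE (1667 ± 661 FPKM, against 1561 ± 1098 FPKM in Ctrl). Of the 6 enterocyte markers, all digestive enzyme genes, 0 rose and 5 fell in ttk-RNAi against Ctrl. In dpn OE against Ctrl 3 rose and 0 fell, where 44.6% of all genes tested were higher and 12.5% lower. The enterocyte markers summed to 23.2 to 54 FPKM in ttk-RNAi, 117 to 452 FPKM in seq&Nicd OE and 487 to 574 FPKM in dpn OE. Their sum was 181 to 286 FPKM in Nicd OE and 113 to 415 FPKM in Ctrl. Of the haemocyte and fat body markers 1 of 5 passed the filter on low values, and their sum was 0.872 to 11.5 FPKM over the 15 libraries. The part of other cell types in the levels of the lncRNA genes was not tested, and in bulk libraries fewer cells of a type and less RNA per cell cannot be told apart.

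**Figure D2:**
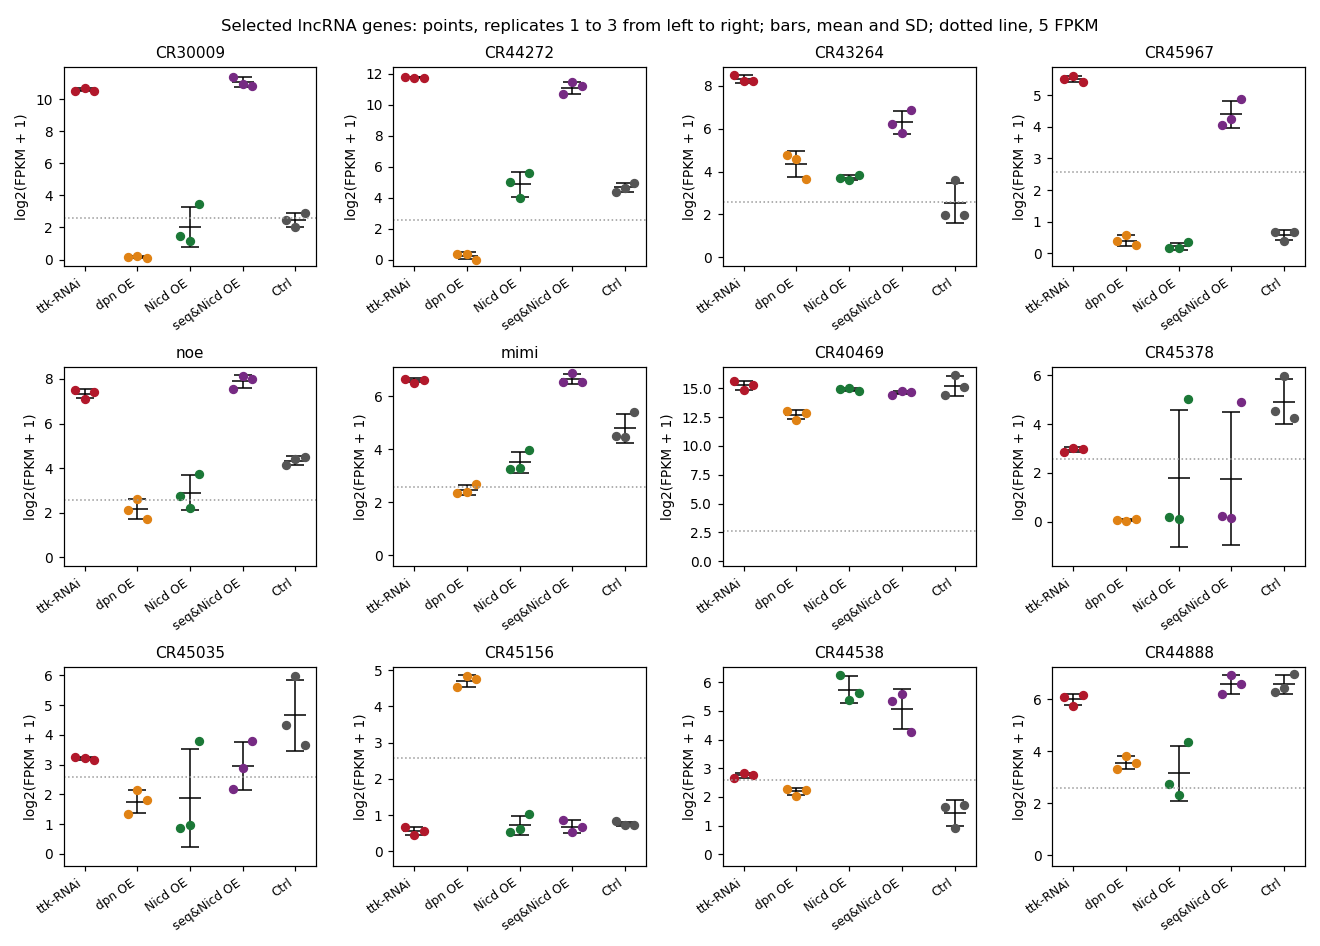
Levels of 12 of the lncRNA genes in each library as log2(FPKM + 1), with the 3 libraries of each group as points and the mean and SD of the group as bars (n = 3). The 6 libraries labelled ttk-RNAi and seq&Nicd OE lie above the other 9 for the first 6 genes, dpn OE is lowest for CR40469, and replicate 3 lies far above replicates 1 and 2 in both Nicd OE and seq&Nicd OE for CR45378.

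CR40469, an intergenic gene of 214 bases and 1 exon at X:122493-122706 near the end of the X chromosome, was the most abundant member by far. It had 8195, 4843 and 7630.0 FPKM in dpn OE and 51382, 29809.8 and 40874 FPKM in ttk-RNAi. It had 22365, 27101 and 25594 FPKM in seq&Nicd OE, 30983, 32363 and 27727 FPKM in Nicd OE and 21438, 71887 and 34416 FPKM in Ctrl. The dpn OE libraries were below all others, and the range of the Ctrl libraries took in every seq&Nicd OE, Nicd OE and ttk-RNAi library. It made up 1.02% to 13.1% of the summed FPKM of a library, and 1.02% to 1.80% in dpn OE. CR40469 fell by 2.48 ± 0.34 (SE) in dpn OE against Ctrl on the log2(FPKM + 1) scale (limma adjusted p = 3.7e-05), a 6.18-fold lower mean, or 4.05-fold lower without Ctrl replicate 2. Its comparisons with Ctrl were not called in ttk-RNAi (limma adjusted p = 0.87), seq&Nicd OE (0.19) and Nicd OE (0.49). Whether its sequence has copies elsewhere in the genome was not analysed here.

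By the median over the 15 libraries CR42862 and CR32368 came next. CR42862, of which 4.48% of exon bases are shared with CG33229, had 277, 267 and 282 FPKM in ttk-RNAi and 410.5, 492 and 601 FPKM in dpn OE. It had 245, 191 and 244 FPKM in seq&Nicd OE, 111, 182 and 238 FPKM in Nicd OE and 588, 249 and 472 FPKM in Ctrl. All Nicd OE and seq&Nicd OE libraries lay below the lowest Ctrl library, and it fell by 1.28 in Nicd OE against Ctrl (limma adjusted p = 0.0053, or 0.068 with only these 2 groups in the fit). CR32368, between Tmem43 and syd, had 306, 285 and 282 FPKM in ttk-RNAi and 41.5, 105 and 48.4 FPKM in Ctrl. All ttk-RNAi libraries lay above Ctrl, and it rose by 2.27 (limma adjusted p = 0.0052). Hsromega, the longest of the 82, had 81.3, 84.9 and 79.4 FPKM in ttk-RNAi and 66.4, 40.6 and 28.7 FPKM in dpn OE. It had 19.8, 12.7 and 13 FPKM in seq&Nicd OE, 12.9, 16.2 and 23.9 FPKM in Nicd OE and 54.8, 7.43 and 30.3 FPKM in Ctrl. The Ctrl libraries were the most scattered, and Hsromega rose by 1.76 ± 0.50 in ttk-RNAi (limma adjusted p = 0.010, or 0.068 with only these 2 groups in the fit). Its mean was 2.65-fold higher, and 4.34-fold without Ctrl replicate 1. CR42549, which shares 4.93% of its exon bases with mura, had 24.4, 30.5 and 28.4 FPKM in ttk-RNAi, 30.4, 26.8 and 34.9 FPKM in seq&Nicd OE and 80.4, 41.9 and 66.7 FPKM in Ctrl, and fell by 1.11 in ttk-RNAi (limma adjusted p = 0.0013). CR44417, in an intron of Mapmodulin, averaged 46.5 ± 1.24 FPKM in ttk-RNAi and 38.7 ± 22.6 FPKM in Ctrl and was called in none of the 5 comparisons (smallest limma adjusted p = 0.12).

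CR45378, CR45035 and CR32368 were more than 2-fold higher in replicate 3 than in both other replicates, in both groups labelled with Nicd. No member was so in replicate 1 or in replicate 2 of both groups. CR45378, a gene of 1 exon at 3L:392006-393255 that shares 42% of its bases with trh (trachealess, a transcription factor gene of the tracheal system) on the same strand, had 0.143, 0.089 and 31.1 FPKM in Nicd OE and 0.171, 0.13 and 29.1 FPKM in seq&Nicd OE. It had 6.16, 7.16 and 6.98 FPKM in ttk-RNAi, 0.0617, 0.0304 and 0.0719 FPKM in dpn OE and 22.3, 61.5 and 18 FPKM in Ctrl. The dpn OE libraries were near 0 and every Ctrl library was above every ttk-RNAi library, while the Nicd OE and seq&Nicd OE groups each held 2 libraries near 0 and 1 within the range of Ctrl. It fell by 4.84 ± 1.19 in dpn OE against Ctrl (limma adjusted p = 0.0029). The mean was 621-fold lower, with a 95% counting interval of 285 to 1692, or 369-fold without Ctrl replicate 2. In Nicd OE against Ctrl limma gave an adjusted p of 0.047, which was 0.20 without Nicd OE replicate 1 and 0.12 without Ctrl replicate 2, so no direction is given there. The gene trh itself was at 0.535 ± 0.0613 FPKM in ttk-RNAi, where it was highest, and at 0.0796 ± 0.0202 FPKM in Ctrl.

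CR45035, in an intron of olf413 on the opposite strand, had 8.61, 8.38 and 7.93 FPKM in ttk-RNAi and 1.53, 3.4 and 2.48 FPKM in dpn OE. It had 3.53, 6.31 and 12.7 FPKM in seq&Nicd OE, 0.831, 0.982 and 12.8 FPKM in Nicd OE and 19, 62.1 and 11.5 FPKM in Ctrl. As with CR45378, Ctrl replicate 2 was the highest library and replicate 3 the highest of Nicd OE and of seq&Nicd OE. In dpn OE against Ctrl it fell by 2.89 (limma adjusted p = 0.0021), 12.5-fold on the means and 6.18-fold without Ctrl replicate 2. In Nicd OE against Ctrl it fell by 2.77 (limma adjusted p = 0.0052, or 0.0505 with only these 2 groups in the fit). Nicd OE replicate 3 overlapped Ctrl. The mean was 6.32-fold lower, 34-fold without Nicd OE replicate 3 and 3.13-fold without Ctrl replicate 2. Replicate 3 was also the library of its group with the largest share of reads in genes, in both Nicd OE and seq&Nicd OE, and the part of that share in these levels was not tested.

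The comparison of ttk-RNAi with Ctrl asks how lncRNA levels differ where the labels give a knockdown of ttk. A member was tested only where the 9 libraries outside the comparison alone put it past the threshold, since its choice then did not use the comparison. Of the 62 members so tested, 26 rose (41.9%) and 6 fell (9.68%), against 28.5% higher and 12.8% lower of all 4875 genes past the same threshold in the same 9 libraries, and 44.3% called in either direction of all 8209 genes tested. The median log2 difference was 0.57 over these members and 0.27 over the 4875 genes. After each library was scaled to its median gene 24 of the 62 members were higher and 17 of the 62 lower, against 21.8% higher and 24.8% lower of the 4875 genes. The median difference of all genes was -0.05 with that scaling, against 0.24 without it. Of the 20 members not tested, 13 lay above Ctrl and 3 below it without overlap. The shares of all genes tested were 39.7% above and 17.6% below. Members not tested, here and below, needed libraries of the comparison to pass the threshold, so their shares are a description only.

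Besides the genes above, CR45625 and CR46100 stood out as nearly silent in ttk-RNAi. CR45625, an intergenic gene at X:12912560-12913009, had 0.0869, 0 and 0.0397 FPKM in ttk-RNAi and 3.71, 2.56 and 8.49 FPKM in Ctrl. Its 3 reads over the 3 ttk-RNAi libraries put the 117-fold lower mean between 39.9 and 565 by counting error, and it was 248-fold without ttk-RNAi replicate 1 and 74.3-fold without Ctrl replicate 3 (limma adjusted p = 1.6e-05). It was also low in dpn OE, at 0, 0.423 and 0.266 FPKM (limma adjusted p = 6.2e-05 against Ctrl). CR46100, in an intron of msi (an RNA-binding protein gene) on the opposite strand, had 0, 0 and 0.0565 FPKM in ttk-RNAi, 6.28, 9.86 and 7.28 FPKM in dpn OE and 2.84, 0.817 and 3.5 FPKM in Ctrl. With 2 reads in ttk-RNAi its fold below Ctrl was 127 with a counting interval of 35.1 to 1048, and 84.6 without ttk-RNAi replicate 1 or replicate 2 (limma adjusted p = 2.5e-04). Its dpn OE libraries were the highest of all 15 and gave it its place among the 82, so dpn OE against Ctrl was not tested.

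In the group labelled dpn OE more of the tested lncRNA genes fell than rose. Of the 70 members tested against Ctrl, 15 rose (21.4%) and 24 fell (34.3%), against 41.2% higher and 12.6% lower of the 4476 genes past the same threshold in the other 9 libraries, and 57.1% called in either direction of all genes tested. The median log2 difference was -0.12 over the members and 0.50 over the 4476 genes. With each library scaled to its median gene 6 of the 70 members were higher and 32 of the 70 lower, against 18.7% higher and 29.2% lower of the 4476 genes. The median difference of all genes was -0.02 with that scaling, against 0.50 without it. Of the 12 members not tested, whose choice used this comparison, 8 lay above Ctrl and 2 below it without overlap. The shares of all genes tested were 46.7% above and 14.2% below. The difference between the members and all genes in these shares was not tested.

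CR45156, in an intron of Cip4 on the opposite strand, was high only in dpn OE, at 22.1, 27.4 and 25.8 FPKM, against 0.777, 0.647 and 0.647 FPKM in Ctrl. Its other libraries held 0.355 to 1.03 FPKM, and since dpn OE alone took it past the threshold its level is a description. The alphagamma-element gene CR32865, one of the transcripts of the heat shock locus around the Hsp70 copies on 3R, had 121, 28 and 20.4 FPKM in dpn OE and 11.6, 8.56 and 9.22 FPKM in Ctrl. Replicate 1 of dpn OE was far above the other 2: the mean was 5.75-fold higher than in Ctrl with it and 2.47-fold without it. It rose by 1.98 ± 0.51 (limma adjusted p = 0.0038, or 0.053 with libraries scaled to their median gene), and fell by 2.02 in Nicd OE, where it had 1.82, 1.97 and 1.23 FPKM (limma adjusted p = 0.006). CR44757, in an intron of CG13506, had 26.2, 15.7 and 13.9 FPKM in dpn OE and 11.2, 11 and 11.9 FPKM in ttk-RNAi, against 3.62, 0.356 and 2.83 FPKM in Ctrl, and rose in both (limma adjusted p = 2.7e-05 and 1.8e-04). CR45820, in an intron of Eip63E, had 12, 20.4 and 15.2 FPKM in dpn OE and 9.25, 7.15 and 8.94 FPKM in seq&Nicd OE, against 1.71, 1.31 and 1.84 FPKM in Ctrl. Neither group overlapped Ctrl, and it rose by 2.66 and by 1.85 (limma adjusted p = 2.8e-05 and 7.6e-04).

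CR44888, in an intron of Gmap on the opposite strand, was low in dpn OE and Nicd OE and high elsewhere. It had 8.96, 13.2 and 10.7 FPKM in dpn OE and 5.8, 4.04 and 19.5 FPKM in Nicd OE, and 66.9, 53.3 and 70.6 FPKM in ttk-RNAi, 73.3, 122 and 95.6 FPKM in seq&Nicd OE and 77.1, 86.8 and 126 FPKM in Ctrl. The 6 libraries of the first 2 groups lay below the other 9. It fell by 3.02 in dpn OE and by 3.43 in Nicd OE against Ctrl, and rose by 3.43 in seq&Nicd OE against Nicd OE (limma adjusted p = 2.9e-05, 1.8e-05 and 7.7e-06). The fold below Ctrl in Nicd OE was 9.88, and 19.7 without Nicd OE replicate 3. CR45018, which shares 35.8% of its exon bases with IP3K2 on the same strand, averaged 0.974 ± 0.211 FPKM in dpn OE, 1.6 ± 0.838 FPKM in Nicd OE, 2.38 ± 0.0796 FPKM in seq&Nicd OE and 8.24 ± 3.06 FPKM in Ctrl (SD, n = 3 each). It fell in all 3 (limma adjusted p = 1.5e-05, 9.8e-05 and 6.7e-04).

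In Nicd OE against Ctrl, 5 of 76 tested members rose (6.58%) and 26 fell (34.2%), near the 4.63% higher and 35.2% lower of the 5159 genes past the same threshold in the other 9 libraries. Of all genes tested 39.3% were called in either direction. With libraries scaled to their median gene 13 of the 76 members were higher and 19 of the 76 lower, against 20.4% higher and 17.3% lower of the 5159 genes. The median difference of all genes was -0.03 with that scaling, against -0.40 without it. Of the 6 members not tested, whose choice used this comparison, 1 lay above Ctrl and 1 below it without overlap. The shares of all genes tested were 5.69% above and 34.2% below. CR44538, an intergenic gene of 2 exons at 3L:10205620-10206401, had the largest rise of the tested members, with 75.2, 40.4 and 47.8 FPKM in Nicd OE and 39.9, 47.2 and 18.2 FPKM in seq&Nicd OE, against 5.35, 6.09 and 5.75 FPKM in ttk-RNAi, 3.83, 3.15 and 3.78 FPKM in dpn OE and 2.16, 0.898 and 2.32 FPKM in Ctrl. All 6 libraries of the groups labelled with Nicd lay above the other 9. It rose by 4.31 ± 0.33 in Nicd OE and by 3.63 ± 0.33 in seq&Nicd OE (limma adjusted p = 4.0e-07 and 5.6e-07), and by 1.31 in ttk-RNAi (limma adjusted p = 0.0041). CR43685 averaged 16.8 ± 3.14 FPKM in Nicd OE and 8.67 ± 4.63 FPKM in Ctrl and was called as higher (limma adjusted p = 0.019), but not without Nicd OE replicate 3 (limma adjusted p = 0.053).

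Among the members that fell in Nicd OE, CR15061 lies between upd3 and upd1, genes of ligands of the JAK-STAT pathway. It had 1.69, 1.36 and 3.32 FPKM in Nicd OE and 4.97, 6.38 and 5.53 FPKM in seq&Nicd OE, against 23, 30.5 and 23.1 FPKM in dpn OE and 22.5, 28.7 and 17 FPKM in Ctrl. Both groups labelled with Nicd lay below all other libraries, and CR15061 fell by 2.95 in Nicd OE and by 1.82 in seq&Nicd OE (limma adjusted p = 1.1e-06 and 4.4e-05). CR42839, which lies between the GATA factor genes srp and GATAe, had 1.59, 1.85 and 2.05 FPKM in Nicd OE, 2.79, 3.06 and 2.34 FPKM in seq&Nicd OE and 13.8, 5.44 and 11.6 FPKM in Ctrl. Both groups lay below Ctrl without overlap (limma adjusted p = 7.1e-05 and 3.6e-04). In dpn OE CR42839 was at 5.17, 6.47 and 8.1 FPKM, which overlapped Ctrl (limma adjusted p = 0.11).

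The group labelled seq&Nicd OE was set against Ctrl and against Nicd OE. Against Nicd OE, 27 of 75 tested members rose (36.0%) and 2 fell (2.67%), against 13.3% higher and 3.42% lower of the 5205 genes past the same threshold in the other 9 libraries and 19.6% called in either direction of all genes tested. With libraries scaled to their median gene 25 of the 75 members were higher and 7 of the 75 lower, against 10.3% higher and 13.8% lower of the 5205 genes. The median difference of all genes was -0.06 with that scaling and 0.22 without it. Of the 7 members not tested, whose choice used this comparison, 2 lay above Nicd OE and 3 below it without overlap. The shares of all genes tested were 26.5% above and 7.61% below. Against Ctrl, 18 of 74 rose (24.3%) and 16 fell (21.6%), against 11.4% higher and 21.4% lower of the 5135 genes past that threshold and 34.5% called in either direction of all genes tested. There, after scaling, 26 of the 74 members were higher and 14 of the 74 lower, against 19.2% higher and 20.8% lower of the 5135 genes. The median difference of all genes was -0.05 scaled, against -0.17 unscaled. Of the 8 members not tested against Ctrl, whose choice used that comparison, 3 lay above it and 3 below it without overlap. The shares of all genes tested were 14.9% above and 21.3% below. The comparisons with Ctrl share the 3 Ctrl libraries, and the 2 comparisons of seq&Nicd OE share its 3 libraries.

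**Figure D3:**
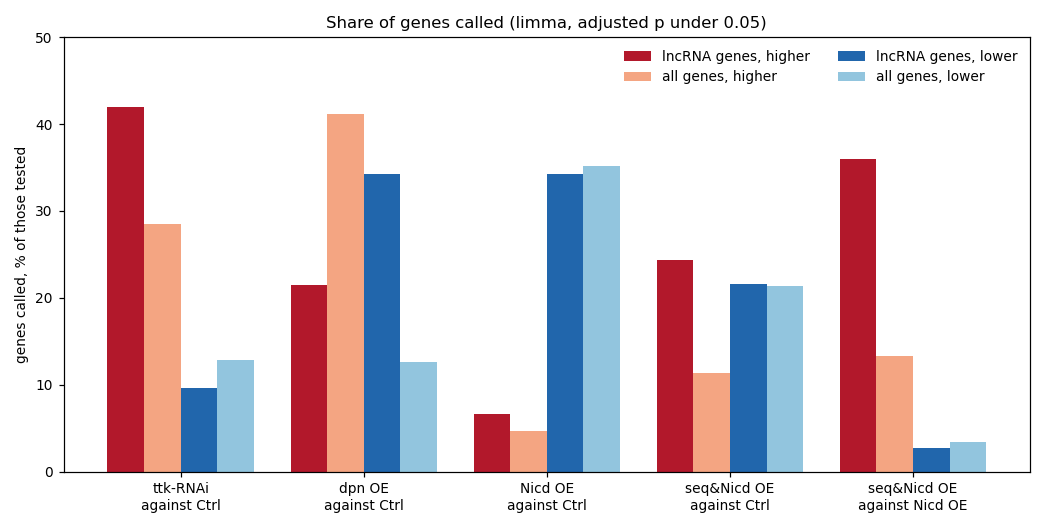
Share of tested genes called by limma as higher (red) or lower (blue) in each of the 5 comparisons. Dark bars stand for the expressed lncRNA genes and pale bars for all genes that met the same threshold in the 9 libraries outside the comparison; in dpn OE against Ctrl 21.4% of lncRNA genes and 41.2% of all such genes were higher.

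CR45635, an intergenic gene near CG5399, fell in Nicd OE against Ctrl (limma adjusted p = 8.4e-04) and was called as higher in seq&Nicd OE against Nicd OE. It had 43.6, 37 and 19.9 FPKM in seq&Nicd OE, 9.3, 2.96 and 6.59 FPKM in Nicd OE and 17.5, 40.3 and 51.1 FPKM in Ctrl. The seq&Nicd OE libraries lay above every Nicd OE library and overlapped Ctrl, and it rose by 2.28 against Nicd OE (limma adjusted p = 0.0011). CR44138, in an intron of CG9813, had 19.3, 13.6 and 21.2 FPKM in seq&Nicd OE, 6.25, 2.48 and 12.9 FPKM in Nicd OE and 27.5, 26.5 and 26.6 FPKM in Ctrl. It was called against Nicd OE (limma adjusted p = 0.030), and the call was lost without Nicd OE replicate 2 (limma adjusted p = 0.17) among others. CR43900, which shares 27% of its exon bases with the calmodulin gene Cam on the same strand, had 1.59, 0.825 and 1.61 FPKM in seq&Nicd OE, 3.4, 3.42 and 3.98 FPKM in Nicd OE and 4.07, 2.38 and 3.22 FPKM in Ctrl. Its seq&Nicd OE libraries were the lowest of all 15, and it fell by 0.99 against Nicd OE (limma adjusted p = 0.0017). It was at 7.16, 7.78 and 6.79 FPKM in ttk-RNAi and 7.8, 7.23 and 6.91 FPKM in dpn OE and rose in both against Ctrl (limma adjusted p = 9.0e-04 and 6.9e-04, the second 0.055 with libraries scaled to their median gene). CR43958, which shares 55.3% of its exon bases with Tdg, averaged 1.42 ± 0.253 FPKM in seq&Nicd OE, 3.53 ± 0.382 FPKM in Nicd OE and 4.74 ± 1.55 FPKM in Ctrl, and fell in seq&Nicd OE against both (limma adjusted p = 0.0049 and 3.4e-04). CR43900 and CR43958 were the 2 tested members called as lower against Nicd OE.

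Several members inside introns differed between groups by more than their hosts. Of the 25 intronic members 24 had a host in the table, and 6 of the 24 were above the host in each of the 5 group means in FPKM, which is a level per length. In ttk-RNAi against Ctrl, 12 of the 24 differed by more than 1 on the log2(FPKM + 1) scale, and in 8 of these the host differed by less than 0.5. In dpn OE against Ctrl the same numbers were 12 and 8, and in Nicd OE against Ctrl 8 and 4. In seq&Nicd OE they were 11 and 7 against Ctrl, and 10 and 6 against Nicd OE. Hosts near or under 1 FPKM, such as CG15765 and blot below, move little on this scale even at a large fold. The counts include members whose choice used the comparison, while hosts were not chosen by level. The counts are therefore a description, and whether members differ more than hosts was not tested. Member and host had the same sign in 11 of 24 pairs in ttk-RNAi, 15 in dpn OE, 5 in seq&Nicd OE and 17 in Nicd OE against Ctrl. In seq&Nicd OE against Nicd OE the same held for 18. Member and host both differed by more than 1 in the same direction in 1 pair in ttk-RNAi against Ctrl, CR43855 and Sema1a. In Nicd OE against Ctrl 3 pairs did so: CR44888 and Gmap, CR44478 and Socs36E, and CR45994 and lbk. In the other comparisons 0 pairs did. CG15765, the host of CR43264, was at 0.146 ± 0.0317 FPKM in ttk-RNAi and 0.0788 ± 0.0202 FPKM in Ctrl, and blot, the host of noe, at 0.687 ± 0.183 FPKM in ttk-RNAi and 1.01 ± 0.219 FPKM in Ctrl (SD, n = 3 each). In seq&Nicd OE CG15765 was at 0.814 ± 0.367 FPKM, against 0.0268 ± 0.0194 FPKM in Nicd OE, so there it lay higher along with CR43264. The host blot was at 0.235 ± 0.0644 FPKM in seq&Nicd OE and 0.207 ± 0.024 FPKM in Nicd OE (limma adjusted p = 0.91). Against Ctrl blot fell in both (limma adjusted p = 0.0015 and 0.0013), while noe rose in seq&Nicd OE and fell in Nicd OE. Cip4, the host of CR45156, was at 67.2 ± 11.8 FPKM in dpn OE and 50.4 ± 9.87 FPKM in Ctrl (limma adjusted p = 0.12), and Gmap, the host of CR44888, at 89 ± 26.2 FPKM in dpn OE and 96.1 ± 25.2 FPKM in Ctrl (limma adjusted p = 0.77). In Nicd OE, however, Gmap was at 37.5 ± 20.7 FPKM and fell against Ctrl, as CR44888 did (limma adjusted p = 0.0026 for Gmap).

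Of the 12 members that share exon bases with a coding gene, 11 had a partner in the table, and CR45566 had 2. In ttk-RNAi against Ctrl 7 of the 11 differed by more than 1 on the log2 scale, and in 3 of these each coding partner differed by less than 0.5. These counts, too, include members whose choice used the comparison and partners under 1 FPKM. CR45566, which lies antisense to parts of RpL4 (a ribosomal protein gene) and mino, averaged 13 ± 1.34 FPKM in ttk-RNAi and 2.57 ± 1.29 FPKM in Ctrl, with RpL4 at 599 ± 3.6 FPKM in ttk-RNAi and 1198 ± 922 FPKM in Ctrl. CR45048 averaged 10.2 ± 0.98 FPKM in ttk-RNAi and 0.43 ± 0.271 FPKM in Ctrl, with RhoGAP92B, its partner on the opposite strand, at 16.2 ± 1.85 FPKM in ttk-RNAi and 23.2 ± 14.9 FPKM in Ctrl. Cam, the partner of CR43900, was at 169 ± 22.4 FPKM in seq&Nicd OE and 86 ± 14.1 FPKM in Nicd OE, where the lncRNA gene was lower in seq&Nicd OE. The use of strand in counting is not given in the sources used here, so reads of a member and of an overlapping transcript may not be fully separated. CR45566 and CR45048 were chosen for these sentences after their values were seen.

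**Figure D4:**
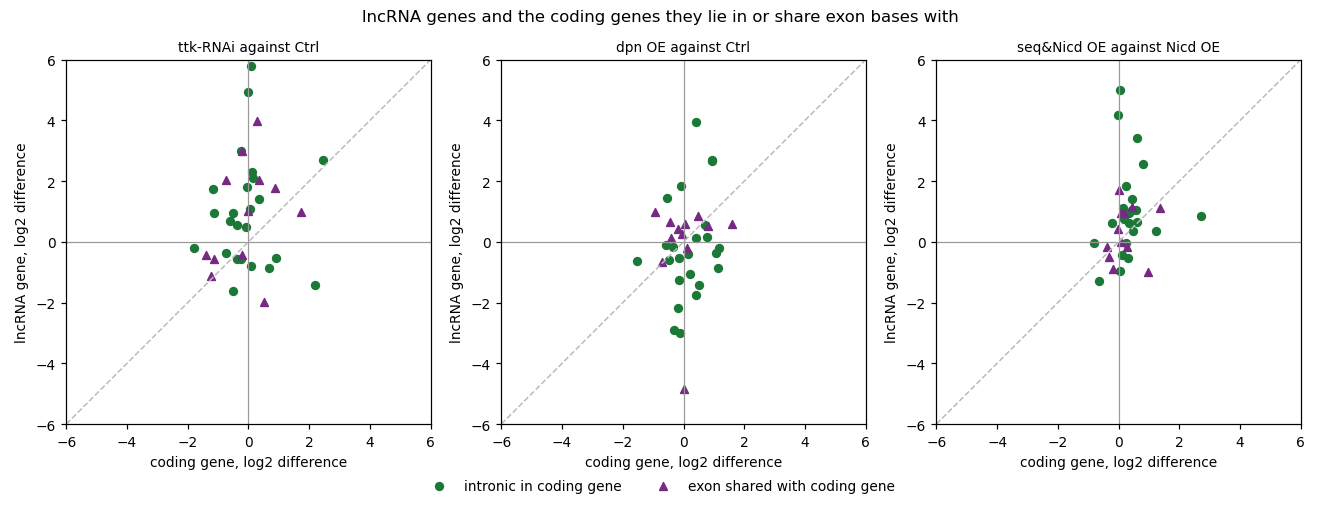
Log2 difference on the log2(FPKM + 1) scale of each lncRNA gene (vertical) against that of the coding gene it lies in (circles, 24 pairs) or shares exon bases with (triangles, 12 pairs), in ttk-RNAi against Ctrl, dpn OE against Ctrl and seq&Nicd OE against Nicd OE. The dashed line marks equal differences. The coding genes lie between -1.78 and 2.70, while the lncRNA genes spread from below -4 to above 5. Coding genes near 0 FPKM move little on this scale. Members whose choice used the comparison are included as values with no test.

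The members with the smallest range of group means were CR44547, CR42861, CR30055, CR43496 and CR44868. CR44547, with the smallest range of the 82, averaged 5.04 ± 0.0884 FPKM in ttk-RNAi and 10.5 ± 2.6 FPKM in dpn OE. Its means were 10.7 ± 2.53 FPKM in seq&Nicd OE, 7.42 ± 1.64 FPKM in Nicd OE and 5.23 ± 2.11 FPKM in Ctrl (SD, n = 3 each). CR42861 averaged 5.69 ± 0.447 FPKM in ttk-RNAi and 12.6 ± 4.26 FPKM in Ctrl and fell by 0.97 there (limma adjusted p = 0.0045). CR30055, in an intron of Sin3A, averaged 5.32 ± 0.659 FPKM in ttk-RNAi, 3.69 ± 0.69 FPKM in Nicd OE and 8.72 ± 3.32 FPKM in Ctrl, and CR44868, in an intron of beat-Ib, 2.52 ± 0.388 FPKM in ttk-RNAi, 5.59 ± 1.33 FPKM in Nicd OE and 5.18 ± 0.898 FPKM in Ctrl. CR43496, in an intron of sov, averaged 10.3 ± 1.89 FPKM in dpn OE and 6.06 ± 1.65 FPKM in Ctrl, and its call as higher there (limma adjusted p = 0.019) was lost with libraries scaled to their median gene (limma adjusted p = 0.80). None of the 82 had group means within 2-fold of each other.

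The members just inside the threshold were CR43634, CR43939 and CR43973, where the third highest library was at 5.01, 5.08 and 5.19 FPKM. Those just outside were CR44977, CR43801 and CR42719, where it was at 4.89, 4.87 and 4.79 FPKM. CR43634 had 5.94, 5.55 and 5.01 FPKM in ttk-RNAi and was listed at 0 in each Nicd OE and Ctrl library, and CR43939 had 5.08, 5.15 and 5.66 FPKM in ttk-RNAi and 0.0694, 0.424 and 0.205 FPKM in Ctrl. CR43973, in an intron of the CTP synthase gene Ctps, had 5.19, 7.09 and 5.27 FPKM in Nicd OE and 2.37, 4.15 and 2.85 FPKM in Ctrl, and only Nicd OE reached 5 FPKM in all 3 libraries. CR42868, an intergenic gene that 3 libraries took past the threshold, shares 54.9% of its exon bases with the lncRNA gene CR45269. It had 1.62, 1.98 and 1.86 FPKM in ttk-RNAi and 4.49, 6.61 and 6.77 FPKM in Ctrl, which did not overlap.

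Of 20 lncRNAs of known name that were listed for comparison, 11 were in the table and 3 were members, namely Hsromega, sphinx and noe. The roX RNAs stayed low: roX1 averaged 0.942 ± 0.116 FPKM in ttk-RNAi, 1.22 ± 0.63 FPKM in seq&Nicd OE and 0.161 ± 0.114 FPKM in Ctrl, and roX2 0.444 ± 0.0681 FPKM in ttk-RNAi, 0.853 ± 0.407 FPKM in seq&Nicd OE and 0.0747 ± 0.0472 FPKM in Ctrl. Of the 6 dosage compensation genes msl-1, msl-2, msl-3, mof, mle and Clamp, 4 rose and 0 fell in dpn OE against Ctrl, where 44.6% of all genes tested were higher and 12.5% lower. In ttk-RNAi against Ctrl 1 rose and 1 fell, where 30.7% of all genes tested were higher and 13.7% lower. The lncRNA cherub, known from fly neural stem cell tumours, averaged 1.09 ± 0.0913 FPKM in ttk-RNAi and 0.158 ± 0.0459 FPKM in Ctrl, and let7C, the host of the microRNA let-7, 3.83 ± 0.728 FPKM in ttk-RNAi and 1.26 ± 0.222 FPKM in Ctrl. The piRNA precursor flam was at 0.18 FPKM or less in each library, and bxd, iab8 and yar did not reach 0.05 FPKM in any. Of the 5 protein genes listed around Hsromega (Hrb87F, Hrb98DE, sqd, nonA and Hsf), 0 rose and 1 fell in ttk-RNAi against Ctrl with a median log2 difference of 0.39, against 0.24 over all genes tested. Of 5 small nucleolar ribonucleoprotein genes in the table, 3 rose and 0 fell in dpn OE against Ctrl and 0 rose and 3 fell in Nicd OE against Ctrl, where 5.07% of all genes tested were higher and 34.2% lower. Of 3 piRNA factor genes tested, 3 rose and 0 fell in dpn OE against Ctrl and 2 rose and 0 fell in seq&Nicd OE against Nicd OE, where 15.8% of all genes tested were higher and 3.85% lower. Of stau and Syp, listed around cherub, 1 rose and 0 fell in ttk-RNAi.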

How the data were processed

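RNA-seq was measured in 15 libraries of sorted fly midgut progenitor cells, in 5 groups of 3, with groups and replicate numbers taken from the sample titles. RNA was amplified before library preparation, per the labels' protocols. The authors deposited 1 FPKM value per gene and library. STAR 2.6.1a, BDGP6 and DESeq2 are named in the submitters' processing notes; the counting tool, strand use and treatment of overlaps are not given in the sources used here. Symbols matched 17251 of 17558 identifiers, and gene structures came from the annotation of BDGP6.54.

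Values were analysed as log2(FPKM + 1), which understates the change of low genes. A model of 5 group means was fitted with limma 3.58.1 in R 4.3.3 to the 8209 genes at 1 FPKM or more in at least 3 libraries, two-sided, with a trend of variance on level and 10 residual degrees of freedom. Adjusted p-values are limma's, by Benjamini-Hochberg over the genes of a comparison, and genes were called under 0.05. The fit was tested on simulated data. Low values stepped in whole reads (97.8% to 98.3% of values up to 20 reads within 0.02 reads), which gave each library's depth. Where a group held at most 9 reads of a gene, 95% exact Poisson intervals of those reads were carried to the fold, and they cover counting error only.

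The members, the gene lists and the rule for named genes were chosen with earlier results of these data known. Named were 4 marker genes, the 5 largest rises and falls without overlap in each comparison, the 10 highest and 5 least variable members, lncRNAs of known role, the neighbours and hosts of the markers, and the 3 genes on either side of the threshold. In seq&Nicd OE against Nicd OE same-numbered libraries deviated together (correlations of 0.2, 0.21 and 0.43). The values reported above do not use that pairing. With the replicate as a block 29 members were called, as without it. Promoter motifs and sequences were not analysed here.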

Additional observations from a re-analysis of the deposited data

How the results depend on the processing

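A threshold of 2 FPKM found 179 lncRNA genes and one of 10 FPKM found 50, and without any single library 73 to 82 remained. The members called in each of the 5 comparisons stayed within 1.5 times of the reported counts with a pseudocount of 0.1, without the filter on low values and under the 3 scalings. With only both groups in the fit the count against Ctrl was 21 in seq&Nicd OE and 19 in Nicd OE. Without single libraries, ttk-RNAi against Ctrl gave 30 to 36, dpn OE 31 to 40, seq&Nicd OE 25 to 37 and Nicd OE 24 to 38, and seq&Nicd OE against Nicd OE 23 to 31. The split into higher and lower members depended on scaling. With quantile normalization it was 24 and 18 of 62 in ttk-RNAi and 8 and 32 of 70 in dpn OE. It was 25 and 13 of 74 in seq&Nicd OE, 13 and 18 of 76 in Nicd OE, and 25 and 6 of 75 in seq&Nicd OE against Nicd OE. Of all genes past the same threshold, 23.4% and 24.5% were then higher and lower in ttk-RNAi, and 26.5% and 24.9% in dpn OE. The shares were 21.4% and 20.2% in seq&Nicd OE, 19.0% and 17.6% in Nicd OE, and 11.4% and 11.4% in seq&Nicd OE against Nicd OE. Of 178 results for named genes in a tested comparison, 107 kept their side of the threshold under each alternative run, and of 2314 single recalculations 2118 kept it, 106 gained a call and 90 lost it. None changed sign with a call on either side, and 107 changed sign without a call. With the replicate number as a block ttk-RNAi gave 34 calls against Ctrl, dpn OE 39, seq&Nicd OE 35 and Nicd OE 31; there the pairing of numbers was not borne out, with correlations of deviations between -0.19 and 0.26. Of the named results 4 gained and 1 lost its call under the block. Genes near 1 read per library, such as CR45625, CR46100 and CR43704 in their low groups, are limited by depth.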
